A study of Mus musculus with 375 samples.

Results

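The cells described here are control-diet cells that held all 4 core transcripts of MHC class II, the invariant chain Cd74 and the chains H2-Ab1, H2-Aa and H2-Eb1, each at 1 TPM or more. TPM is a gene's share of a cell's transcripts, scaled for gene length. By this rule 54 of the 93 cells of control set 1 and 47 of the 91 cells of control set 2 were members, 54.9% of all control cells that passed the filter on detected genes. They are called full class II cells here, and the remaining 83 control cells, 39 and 44 per set, are called other control cells. Because the rule reads these 4 genes, their levels are given as a description, with no test. The tests concern genes outside class II.

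The study, by its title, concerned diet, MHC class II in the intestinal epithelium and tumour formation. Lgr5-positive small intestinal cells came by flow sorting from mice that ate either a control or a high-fat diet (HFD), and each was sequenced by Smart-seq2, which makes full-length cDNA from 1 cell per well. Titles place the cells in 2 control sets and 2 HFD sets, and neither strain, genotype, age, time on diet nor the allele used for the sort is given in the sources used here. Whether each set was its own mouse is not stated, so p-values measure only a spread over these sets, which may be technical. For full class II against other cells, it is how far the difference within a set varied from set to set. That spread was pulled towards that of genes of similar mean, so a gene's SE can be smaller than its own 2 sets would give.

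MHC class II molecules present peptides taken up from outside the cell to CD4+ T cells, and they are best known on dendritic cells, macrophages and B cells. An alpha chain pairs with a beta chain, as H2-Aa does with H2-Ab1, and Cd74 holds the pair until it reaches the endosome. The H2-DM chains help to exchange the Cd74 fragment for a peptide. H2-Eb1 is the beta chain of a separate pair, and the gene of its alpha chain, H2-Ea-ps, was listed at 0 in both classes of both control sets. Transcription of these genes depends on Ciita, a co-activator that interferon gamma induces and that works through factors bound at a shared promoter module with an X box and a Y box. Intestinal epithelial cells, crypt base stem cells among them, can also carry class II.

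The promoters of H2-Aa and H2-Eb1, the rule genes that matched the RefSeq promoter table (GRCm38.p6) and could be shown, are printed because their transcripts were selected together. Capitals mark CTGATTGG, a Y box core, found by searching both strands. The H2-Aa window lies on the minus strand at chr17:34287804-34287953 and the H2-Eb1 window on the plus strand at chr17:34305737-34305886, each 150 bases that end 20 bases past the annotated start.
H2-Aa: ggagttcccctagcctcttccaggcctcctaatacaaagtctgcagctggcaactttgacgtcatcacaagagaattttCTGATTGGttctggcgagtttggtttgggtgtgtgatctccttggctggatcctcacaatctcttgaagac
H2-Eb1: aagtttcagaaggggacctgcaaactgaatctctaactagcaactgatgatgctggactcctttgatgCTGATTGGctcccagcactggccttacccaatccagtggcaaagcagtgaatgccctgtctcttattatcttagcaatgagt
Of 32851 promoters of 300 bases in the table, 1346 (4.1%) held these letters. Of the other class II genes searched, H2-Oa and H2-Eb2 each had 1 match, and H2-DMa, H2-DMb1, H2-DMb2 and H2-Ob had 0. Among the called genes described later, H2-K1 and H2-Q7 each had 1 match, and B2m, Psmb8, Reg3b, Reg3g, Cd177, Adh1, Bex1 and Cyp2e1 had 0 in this window. A match is a description of the letters and not a binding site.

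Full class II cells made up 58.1% of control set 1 (95% Clopper-Pearson interval 47.4 to 68.2) and 51.6% of control set 2 (40.9 to 62.3). In the HFD sets the same rule took 11 of 91 cells (12.1%) and 17 of 92 cells (18.5%). The intervals cover counting error only, and cells of a set are not independent. Most control cells outside the rule still held some of the 4 transcripts: 41 held 3, 23 held 2, 14 held 1 and 5 held 0. Of the 41 cells with 3 transcripts, 35 lacked H2-Aa, 4 lacked H2-Ab1, 2 lacked H2-Eb1 and 0 lacked Cd74. H2-Aa was therefore the transcript that set the border of the group in 24 of 26 such cells of control set 1 and in 11 of 15 of control set 2.

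No control cell had a value above 0 and below 1 TPM for any of the 4, so outside the threshold the missing transcript was listed at 0. Just inside it, the lowest full class II cells of control set 1 had 2.22 TPM of H2-Aa, 2.19 of H2-Eb1, 18.23 of H2-Ab1 and 36.68 of Cd74. In control set 2 the lowest values were 31.43 TPM of H2-Aa, 8.28 of H2-Eb1, 20.16 of H2-Ab1 and 164.21 of Cd74. Only 7 values in these cells lay below 10 TPM, 4 of H2-Aa and 3 of H2-Eb1.

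Cd74 ran from 36.68 through a median of 503 to 2827 TPM in the full class II cells of control set 1 and from 164.2 through 727 to 1964 TPM in those of control set 2. H2-Ab1 had medians of 293.7 and 357.02 TPM, H2-Aa 161.4 and 291.08 TPM, and H2-Eb1 135.8 and 177.35 TPM. Cd74, the chaperone of the complex, thus had the highest median of the 4 in both sets and H2-Eb1 the lowest. The cells that lacked only H2-Aa also had less of the other 3 transcripts. Their median Cd74 was 208.6 and 142.5 TPM, their H2-Ab1 85.8 and 150.6 TPM, and their H2-Eb1 68.8 and 70.8 TPM.

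**Figure D1:**
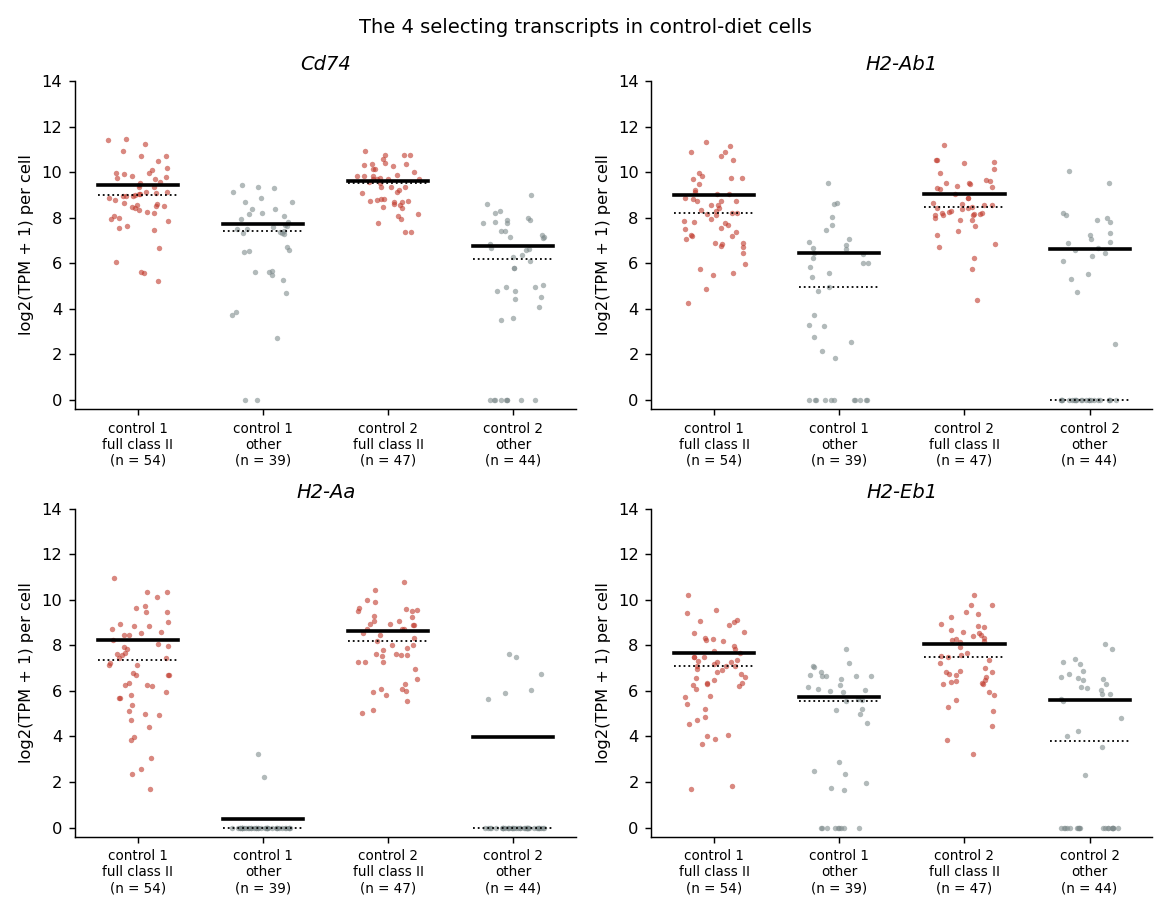
Each point is 1 control cell, with log2(TPM + 1) on the vertical axis; red cells are full class II cells and grey cells the other control cells of the same set. Solid bars mark the log2 of the mean TPM plus 1 and dotted bars the median; the 4 genes chose the cells, and among the grey cells H2-Aa is at 0 in all but 2 and 6 cells.

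Across the full class II cells of a set the 4 transcripts varied together. Spearman's rho between pairs of them ran from 0.66 to 0.88 in control set 1 (54 cells) and from 0.45 to 0.62 in control set 2 (47 cells), and H2-Aa with H2-Eb1 gave the 0.88. All 4 values of a cell come from 1 library and 1 TPM total, so these are descriptions with no p. The mean log2 level of the 4 had a rho of −0.28 and −0.09 with genes detected per cell.

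The accessory class II chains, left out of the test for their tie to the rule, also had higher means in full class II cells. H2-DMa averaged 78.5 TPM in full class II cells and 29.02 TPM in other cells of control set 1, and 86.9 and 24.6 TPM in control set 2. H2-DMb1 averaged 43.5 and 23.8 TPM in control set 1, and 84.6 and 5.22 TPM in control set 2. The B cell-associated chains stood near 0 in the full class II cells, H2-Oa at 0 in both sets and H2-Ob at 0 and 1.23 TPM.

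Ciita, the co-activator of class II transcription, was detected in 30 of 54 and 21 of 47 full class II cells, and in 15 of 39 and 8 of 44 other cells. Its mean was 19.3 against 8.84 TPM in control set 1 and 13.99 against 3.62 TPM in control set 2, higher in full class II cells of both sets. The log2 difference of 1.37 (SE 0.37) did not pass the test (limma, adjusted p = 0.404). Among full class II cells, Ciita had a rho of 0.02 and 0.13 with the mean level of the 4 class II transcripts. Of the 8 class II transcription factors on the list, Ciita, the RFX subunits, the NF-Y subunits and Creb1, 0 were called, and the median log2 difference was −0.03.

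Outside class II, full class II cells carried more transcript of 4 genes of class I and its peptide supply (B2m, H2-K1, Psmb8 and H2-Q7). In a subset of cells they carried far more of the Reg3 lectins Reg3g and Reg3b. The test compared the mean of full class II cells with that of other cells within each control set, on log2(mean TPM + 1). Of 11601 genes tested, 10 were called higher (0.0862%) and 1 lower (0.00862%) by limma at an adjusted p of 0.05, and 715 had an unadjusted p below that value. Those called higher were Reg3g, Reg3b, H2-K1, Cd177, Psmb8, B2m, Adh1, Bex1, H2-Q7 and 1 uncharacterised clone symbol, and the gene called lower was Cyp2e1. Every one of the 11 kept its direction in each of the 15 or 16 other settings that could test it. Several of these could not have changed it. Other filters on low genes, no block, a fit over all 4 sets and a minimum of 4000 genes per cell reuse the same control class means. The calls were lost in several of the 15 or 16 settings. With no filter on low genes 0 genes were called, as in a fit over all 4 sets (smallest limma adjusted p 0.0517, for Reg3g). The same held against cells with at most 2 of the 4 transcripts. Fits without a control set kept 1 control set and both HFD sets, which then gave the spread, so no count of their calls is given. They are still among the 15 or 16 other settings counted per gene.

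B2m, the light chain shared by class I molecules, ran from 132.95 through a median of 581 to 2727 TPM in full class II cells of control set 1, and from 129.7 through 482 to 1138 TPM in other cells. In control set 2 it ran from 347.99 through 895 to 2238 TPM, and from 95.6 through 559.5 to 1163 TPM. The ranges over cells overlapped, while both set means were higher in full class II cells, 708 against 490 and 951 against 630 TPM. The log2 difference was 0.56 (SE 0.08; limma, adjusted p = 0.00682).

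H2-K1, a classical class I heavy chain, averaged 433 against 256.6 TPM in control set 1 and 604 against 312.9 TPM in control set 2. Its medians over cells were 339.5 against 251.9 and 517 against 297.6 TPM, so the shift was not carried by a few cells alone. The log2 difference was 0.85 (SE 0.10; limma, adjusted p = 0.00168). H2-D1, the other classical heavy chain, chosen for mention after its values were seen, differed by 0.60 (SE 0.11) and did not pass (limma, adjusted p = 0.103).

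Psmb8, an interferon-inducible proteasome subunit that shapes peptides for class I, averaged 190.3 against 85.1 TPM in control set 1 and 192.4 against 93.4 TPM in control set 2. It was detected in 53 of 54 and 43 of 47 full class II cells, against 31 of 39 and 32 of 44 other cells. The log2 difference was 1.09 (SE 0.15; limma, adjusted p = 0.00516). Its partner subunit Psmb9 differed by 0.87 (SE 0.20; limma, adjusted p = 0.285) and the peptide transporter subunit Tap1 by 0.77 (SE 0.29; limma, adjusted p = 0.681), neither past the threshold.

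H2-Q7, a nonclassical class I heavy chain, was detected in 24 of 54 and 14 of 47 full class II cells, and in 7 of 39 and 3 of 44 other cells. Its means were 19.3 against 3.94 TPM and 22.5 against 4.43 TPM, and 75.01% of the sum in the other cells of control set 2 came from 1 cell. The log2 difference was 2.08 (SE 0.36, limma, adjusted p = 0.0428). H2-Q7 was called in only 3 of 16 other settings, which include the fits without a control set. Its direction held in all 16, though several of them could not have changed it. H2-Q genes are near copies of each other, so reads may have been split between them by the authors' quantification.

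Of the 31 tested genes of the class I and peptide loading list, 4 were called higher (B2m, H2-K1, Psmb8 and H2-Q7) and 0 lower. The list's median log2 difference was 0.33, against 0.03 over all tested genes. In the list 64.5% of genes were higher in both control sets and 6.45% lower in both, against 28.1% and 22.7% of all tested genes. The list's mean log2(TPM + 1) per cell was 4.24 against 3.69 in control set 1 and 4.12 against 3.70 in control set 2. Nlrc5, a co-activator of class I genes, was detected in 6 of 54 and 8 of 47 full class II cells and in 1 of 39 and 0 of 44 other cells; it did not pass (limma, adjusted p = 0.742).

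**Figure D2:**
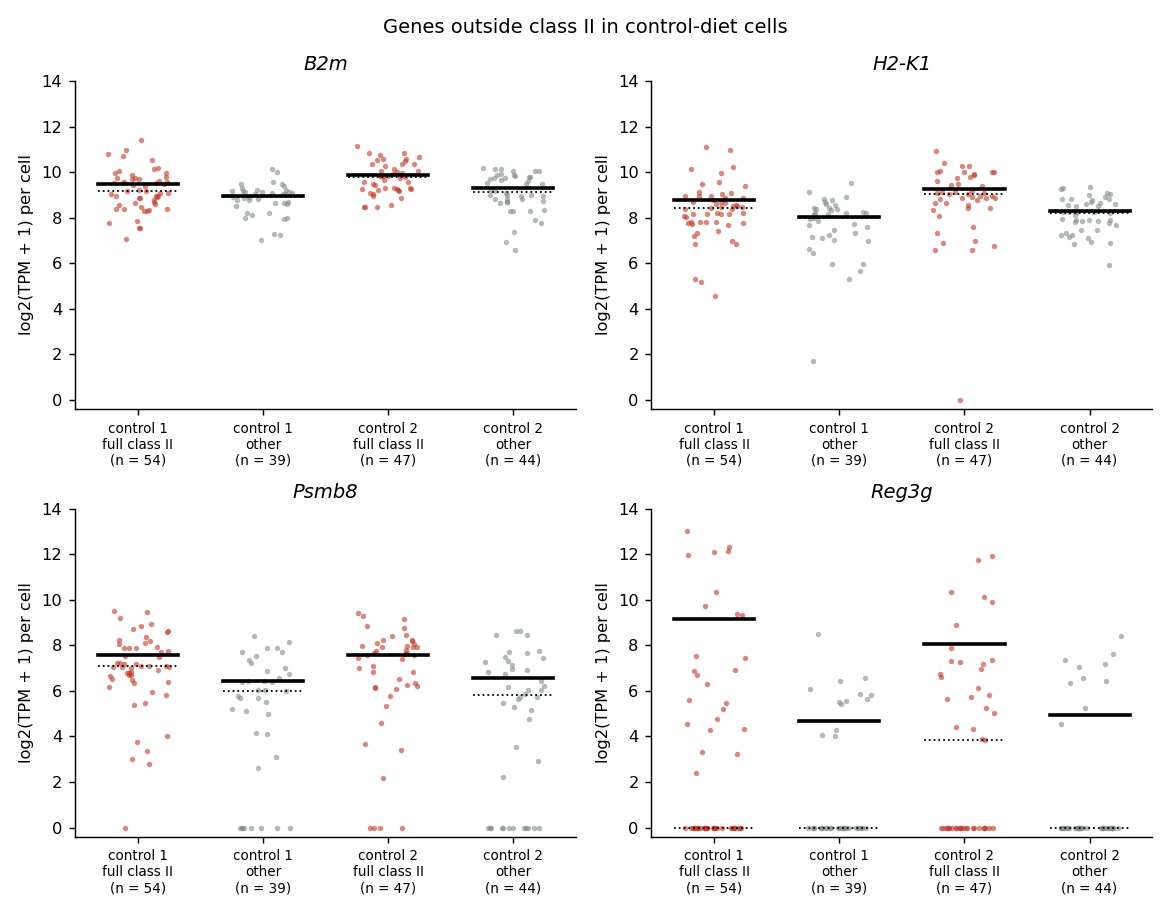
Each point is 1 control cell with its log2(TPM + 1) for B2m, H2-K1, Psmb8 or Reg3g; solid bars are the log2 of the mean TPM plus 1 and dotted bars the median, for full class II cells (red) and other cells (grey) of each control set. B2m and H2-K1 have higher medians in full class II cells of both sets, with overlapping cells, whereas Reg3g is at 0 in many cells of each class and its highest cells are full class II cells.

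The class I and peptide loading values did not all climb in step with the number of class II transcripts held. Cells with 0 to 2, 3 and 4 of the transcripts had mean B2m levels of 511, 479 and 708 TPM in control set 1 and of 632, 626 and 951 TPM in control set 2, so the step lay between 3 and 4. H2-K1 ran through 232.05, 268.9 and 433 TPM in control set 1 and through 274.4, 387 and 604 TPM in control set 2, higher at each step. Psmb8 ran through 78.7, 88.4 and 190.3 TPM in control set 1 and through 74.9, 129.2 and 192.4 TPM in control set 2. Against cells with at most 2 of the 4 transcripts alone (13 and 29 cells), 0 genes were called, and the log2 differences of B2m, H2-K1 and Psmb8 were 0.53, 1.02 and 1.31.

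Within the full class II cells, the mean log2 level of the 4 class II transcripts had a Spearman's rho of 0.45 and 0.22 with B2m, 0.33 and 0.41 with H2-K1, 0.49 and 0.47 with H2-D1 and 0.45 and 0.23 with Psmb8 in control sets 1 and 2. The points share a library and a TPM total, and no p is given. B2m lies on chromosome 2, while H2-K1 (chr17:33996017-34000347) and Psmb8 (chr17:34197721-34201454) lie on either side of the class II DM genes on chromosome 17 in GENCODE M21 (GRCm38).

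The Reg3 lectins, secreted proteins of the epithelium that bind and kill bacteria, differed most, and they did so through a minority of cells. Reg3g was detected in 25 of 54 and 24 of 47 full class II cells, and in 13 of 39 and 10 of 44 other cells. Its highest value was 8244 and 3859 TPM in full class II cells, against 360.6 and 336.97 TPM in other cells. Its means were 569 against 24.4 TPM and 269.4 against 29.3 TPM, with 26.8% and 30.5% of the sum in full class II cells from 1 cell. The log2 difference was 3.82 (SE 0.24, limma, adjusted p = 8.02e-07). It was 4.49 in control set 1 and 3.16 in control set 2, and the SE draws largely on other genes of similar mean. Of the 33 control cells with at least 100 TPM of Reg3g, 27 were full class II cells.

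Reg3b, the closely related lectin, was found in 16 control cells, of which 15 were full class II cells (11 and 4 per set), and all 16 also held Reg3g. Those 11 and 4 cells had medians of 1500 and 2291 TPM. The class means were 353.85 against 28.6 TPM in control set 1, where a single cell of 1116 TPM made up the other cells' value. In control set 2 the mean was 162.01 TPM in full class II cells, and the gene was listed at 0 in all 44 other cells, which allows up to 6.82% of cells. Reg3b was called higher (limma, adjusted p = 0.000224). No fold is given because 1 class is listed at 0.

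Of the 13 tested antimicrobial genes, 2 were called higher (Reg3g and Reg3b) and 0 lower. Their median log2 difference was 1.74, or 1.19 over the members without the 6 genes that are listed at 0 in at least 1 class, where the value depends on the pseudocount. Pglyrp1, a peptidoglycan-binding protein, was found in nearly every cell, with means of 165.7 against 124.7 TPM and 199.5 against 109.3 TPM, and did not pass (difference 0.63, SE 0.15; limma, adjusted p = 0.328). Duox2, a peroxide-producing oxidase, was detected in 12 and 8 full class II cells and in 6 and 3 other cells and did not pass (limma, adjusted p = 0.328). Nos2, the inducible nitric oxide synthase, was detected in 12 control cells, all of them full class II cells, 9 in control set 1 and 3 in control set 2, and did not pass either (limma, adjusted p = 0.328).

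The other called genes were also found in a minority of cells or in most of them at shifted levels. Cd177, a surface glycoprotein known from neutrophils, was detected in 19 of 54 and 14 of 47 full class II cells and in 10 of 39 and 3 of 44 other cells. Its means were 57.6 against 12.1 TPM and 34.5 against 1.19 TPM (difference 3.09, SE 0.40, limma, adjusted p = 0.00328). The difference was 2.16 in control set 1 and 4.02 in control set 2. On means of log2(TPM + 1) per cell its difference was 1.18 and it was not called (limma, adjusted p = 0.155). Bex1, a small X-linked protein, was detected in 9 and 6 full class II cells and in 2 and 1 other cells, and 56.3% of its sum in full class II cells of control set 2 came from 1 cell. Bex1 differed by 2.48 (SE 0.41, limma, adjusted p = 0.0261), and was called in only 3 of 15 other settings, which include the fits without a control set.

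Adh1, an alcohol dehydrogenase that also acts on retinol, averaged 374.8 against 246.7 TPM and 465 against 260.8 TPM (difference 0.72, SE 0.11; limma, adjusted p = 0.014). Its medians over cells ran opposite ways in the 2 sets, 134.7 against 177.05 TPM in control set 1 and 227.6 against 84.7 TPM in control set 2. On means of log2(TPM + 1) per cell Adh1 was not called (difference 0.42; limma, adjusted p = 0.93). Cyp2e1, a cytochrome P450 that oxidises ethanol, was the gene called lower, with means of 110.5 against 187.3 TPM and 105.9 against 219.2 TPM (difference −0.90, SE 0.15; limma, adjusted p = 0.0255). It fell with each step in class II transcripts held, through 265.7, 148.04 and 110.5 TPM in control set 1 and through 255.7, 148.6 and 105.9 TPM in control set 2.

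On the list of the interferon gamma route, which is known to induce Ciita, 21 genes were tested and 0 were called. Psmb8, which is interferon-inducible, and the other called class I genes were on the class I list and are not counted here. Their median log2 difference was 0.33, or 0.245 without the 1 gene that is listed at 0 in at least 1 class, against 0.03 over all tested genes. In the list 47.6% were higher in both control sets, against 28.1% of all tested genes. Tgtp2 and Irgm1, interferon-inducible GTPases, had higher means in both sets, by 2.25 and 1.02 and by 0.69 and 0.63 (log2), and did not pass (limma, adjusted p = 0.462 and 0.704). Irf1 averaged 86.6 against 85.3 TPM and 112.8 against 112.6 TPM, with a difference of 0.01 (SE 0.16). The receptor chain Ifngr1 averaged 94.7 against 104.1 TPM and 132.1 against 126.7 TPM. Cd274, an inhibitory ligand for T cells, averaged 4.04 against 1.13 TPM and 3.40 against 0.23 TPM and did not pass (limma, adjusted p = 0.681), with 72.3% and 64.7% of the full class II sums from 1 cell each.

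Crypt stem cell transcripts gave no call. Of 34 tested genes of the stem cell signature, 0 were called, and the median log2 difference was 0.04. Lgr5, the receptor the cells were sorted for, was detected in 51 of 54 and 43 of 47 full class II cells and in 80 of 83 other cells, with means of 147.2 against 190.1 TPM and 118.8 against 119.1 TPM (difference −0.19, SE 0.15). Olfm4, a crypt base marker, was found in every control cell and averaged 6871 against 7051 TPM and 9561 against 8953 TPM. Ascl2, a stem cell transcription factor, averaged 81.9 against 77.99 TPM and 63.5 against 83.2 TPM.

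Cell cycle genes showed no call in either direction. Of 49 S phase genes, 30 (61.2%) were higher in both sets and 0 lower in both, against 28.1% and 22.7% of all tested genes. Their median log2 difference was 0.24, against 0.03 over all tested genes. Chaf1b, a chromatin assembly subunit, differed by 0.82 (SE 0.23, limma, adjusted p = 0.454). The G2/M list (53 genes) had a median of −0.03, and its mean per-cell level was 0.65 higher in full class II cells in control set 1 and 0.55 lower in control set 2. Mki67, a proliferation marker, averaged 44.9 against 28.3 TPM and 31.8 against 46.5 TPM, so the 2 sets pointed opposite ways.

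Of 77 tested cytosolic ribosomal protein genes, 0 were called and 60 (77.9%) were lower in both sets, against 22.7% of all tested genes. Their median log2 difference was −0.07, against 0.03 over all tested genes. The unfolded protein response list (24 genes) had a median of 0.27 and the cholesterol synthesis list (25 genes) a median of 0.26, each with 0 called. Insig1, a feedback regulator of cholesterol synthesis, averaged 31.3 against 8.55 TPM and 31.3 against 13.8 TPM and did not pass (difference 1.44, SE 0.30; limma, adjusted p = 0.20).

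**Figure D3:**
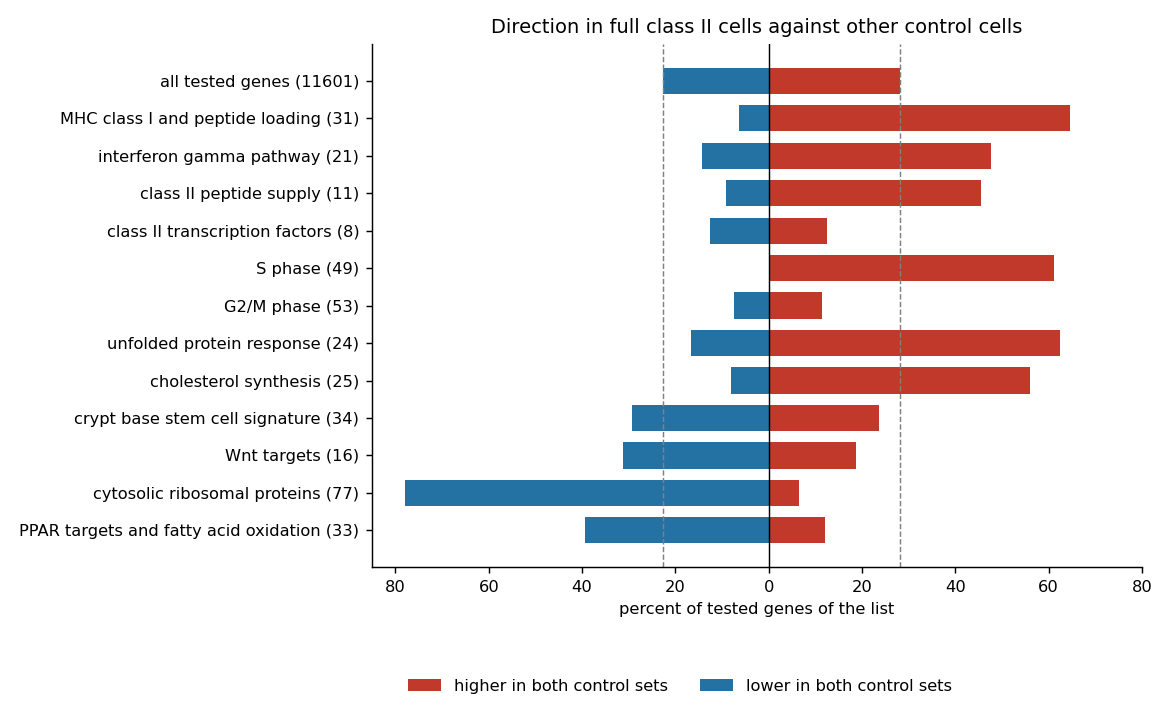
Bars give the percent of each list's tested genes (number in brackets) that were higher (red, right) or lower (blue, left) in full class II cells in both control sets; dashed lines mark all tested genes, 28.1% and 22.7%. The class I list reaches 64.5% higher and the ribosomal protein list 77.9% lower.

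Full class II cells had more detected genes than other cells in control set 1 (mean 7055 against 6720) and fewer in control set 2 (6077 against 6297). The within-set differences of 334.9 and −220.05 genes pointed opposite ways. Rn45s, the ribosomal RNA precursor, took 39.01% against 39.3% of TPM in control set 1 and 24.6% against 24.6% in control set 2. Epcam, Cdh1 and Krt8, epithelial markers, were found in every full class II cell and in all 83 other cells. Of the defining markers of immune cells, Ptprc (all leukocytes), Cd3e (T cells), Cd79a (B cells) were at 0 in both classes, which allows up to 2.97% of the full class II cells. Other markers on the T and B cell lists were not. Cd8a, a T cell co-receptor chain, was detected in 27.7% of full class II cells and 30.1% of other cells, at no more than 16.63 TPM. Ms4a1, a B cell surface protein, was found in 1 cell of each class. Of 3 tested T cell list genes, Itgae averaged 13.2 against 4.28 TPM in control set 1 and 7.18 against 3.73 TPM in control set 2. Lck averaged 0.78 against 0.59 and 1.64 against 4.82 TPM. The 2 tested B cell list genes had higher means in full class II cells of both sets. Blnk averaged 72.9 against 61.8 and 60.1 against 42.1 TPM, and Sdc1 57.8 against 56.1 and 70.6 against 45.2 TPM. None of these was called, and their part in the results was not tested.

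For the dendritic cell and macrophage list, 21 genes in the table, the median summed level was 2.13 against 1.49 TPM in control set 1 and 1.57 against 1.53 TPM in control set 2. Of its markers, Itgam was detected in 17 full class II cells and 15 other cells (16.8% and 18.1%), Itgax in 5 and 1, Csf1r in 4 and 0, Lyz2 in 2 and 0, and Flt3 in 0 and 0; their part in the results was not tested. Goblet cell transcripts reached higher in 1 full class II cell of control set 1, from which 86.9% of that class's Muc2 came. Muc2, the main gut mucin, averaged 56.6 against 0.28 TPM there and 0.49 against 0.05 TPM in control set 2 and did not pass (limma, adjusted p = 0.462). With cells carrying secretory markers left out, 7 of the 11 calls remained, and B2m (adjusted p = 0.126), Bex1 (0.208), H2-Q7 (0.162) and Cyp2e1 (0.162) were lost by limma. Their log2 differences without those cells were 0.51, 2.07, 2.07 and −0.91, against 0.56, 2.48, 2.08 and −0.90 with them.

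The same comparison within the HFD sets rested on 11 and 17 full class II cells. B2m was higher there by 0.11 and 0.33 (log2), H2-K1 by 0.55 and 0.50, and Psmb8 by 0.63 and 1.81, against 0.53 and 0.59, 0.75 and 0.95, and 1.15 and 1.03 in the control sets. Reg3g differed by 0.25 and 0.95 in the HFD sets, against 4.49 and 3.16 in the control sets. Reg3b was listed at 0 in all 28 full class II cells of the HFD sets. The test of the difference between the diets in these within-set differences called 0 of 11667 genes by limma, 681 with an unadjusted p under 0.05. For Reg3g that difference was 3.22 (SE 0.47; limma, adjusted p = 0.835) and for H2-K1 0.32 (SE 0.15; limma, adjusted p = 0.835).

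**Figure D4:**
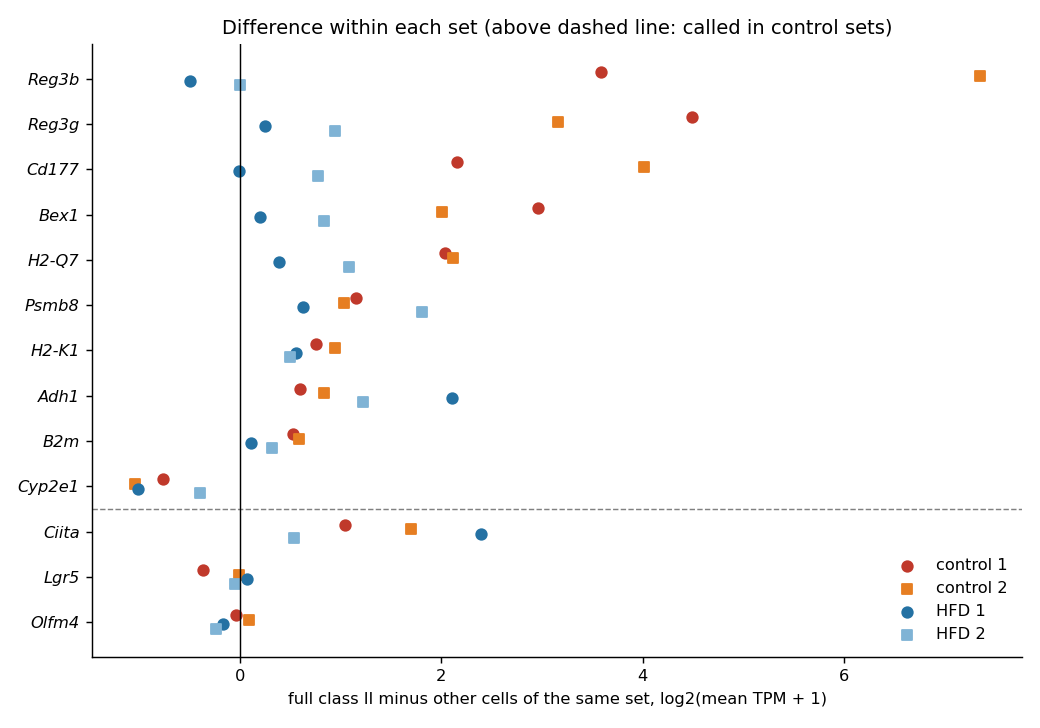
Each marker is 1 set's difference between full class II and other cells on the log2(mean TPM + 1) scale, control sets in red and orange and HFD sets in blue; genes above the dashed line were called in the control sets. Except for Reg3b, Cd177 and Cyp2e1, the genes above the line lie right of 0 in all 4 sets, and the Reg3b values depend on the pseudocount since Reg3b is at 0 in 1 class of control set 2.

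Full class II cells of the 2 control sets were also compared with the full class II cells of the 2 HFD sets. Of 11643 genes, 1 was called (0.00859%), Reg3b, higher in the control sets (limma, adjusted p = 0.00158), with means of 353.85 and 162.01 TPM against 0 in both HFD sets, which allows up to 27.3% and 17.6% of the HFD cells. It was not called without control set 1 or control set 2 (limma, adjusted p = 0.99998 each) or without HFD set 1 (0.269). Reg3g averaged 569 and 269.4 TPM against 32.7 and 88.2 TPM and did not pass (difference 2.84, SE 0.51; limma, adjusted p = 0.786). Fabp1, a fatty acid binding protein of the enterocyte, averaged 28.6 and 44.5 TPM against 199.8 and 272.5 TPM and did not pass (difference −2.67, SE 0.34; limma, adjusted p = 0.209). The gap was not particular to full class II cells, since Fabp1 in the other cells averaged 26.3 and 60.1 TPM against 396.6 and 501.7 TPM.

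Levels of the class II transcripts in cells chosen by the same rule overlapped between the diets. Median Cd74 was 503 and 727 TPM in control sets and 932 and 495 TPM in HFD sets. Median H2-Ab1 was 293.7 and 357.02 against 216.7 and 333.05 TPM, and median H2-Aa was 161.4 and 291.08 against 125.2 and 257.09 TPM. H2-K1 and B2m did not differ past the test between the diets in these cells, with differences of −0.05 (SE 0.32) and −0.36 (SE 0.35).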

How the data were processed

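The deposited values are TPM, 1 per gene and cell, made by the authors with Bowtie2 and RSEM on mm10 per the submitters' processing notes (versions and annotation: not given in the sources used here). Read depth cannot be recovered from TPM and is unknown. The members and gene lists were chosen with earlier results of these data known. A minimum of 2000 detected genes removed 1 cell of control set 1 and 3 of control set 2; the control cells kept held 4745 to 9822 genes. No 2 cells had identical values, and no doublet caller was run, since cells were sorted into wells.

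TPM was averaged over the cells of a class in a set, since cells are not replicates. The main test was limma 3.58.1 (R 4.3.3) on log2(mean TPM + 1) with the variance trended on the mean, a scale that understates changes of low genes. Each gene's variance was pulled towards that of genes of similar mean. It used 4 class means with the set as a block (1 residual degree of freedom), genes averaging 1 TPM or more, two-sided p-values and Benjamini-Hochberg adjustment at 0.05 over all tested genes. The class II genes were left out of the fit and described. Diet tests used the 8 class means (difference of differences) or the 4 full class II means. An exact permutation of 2 paired sets cannot go below p = 0.5. Tested on simulated data, the fit gave no wrong signs, but the share of false calls was often above the threshold. The cause of that excess was not tested. Named were, per comparison, up to 10 genes per direction by size among called genes or else by smallest p, up to 4 members of each list discussed and genes fixed by name such as Ciita, Lgr5 and Irf1; predicted genes and clones were counted only. A transcript was detected at 1 TPM or more. A count of 0 cells allows the share that 3 cells would make. Coordinates are from GENCODE M21 and promoters from RefSeq. Other settings covered the pseudocount, filters, block, scaling, averaging, genes detected per cell, member rule, comparison cells, secretory cells and each set left out. A few genes of the lists are not reported by name here.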

Additional observations from a re-analysis of the deposited data

How the results depend on the processing

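The direction of all 11 called genes held under every setting that could test them, whereas the number of calls did not. Direction could not change with other filters on low genes, no block, the fit over all 4 sets or at least 4000 genes per cell. Those settings reuse the same control class means. The count of 11 between full class II and other control cells was 0 with no filter on low genes, 0 in the fit over all 4 sets, 0 against cells holding at most 2 of the 4 transcripts, 6 with class means scaled by median ratios, 5 with all 4 genes at 10 TPM or more, 7 without secretory cells and 6 within the interquartile range of genes detected (4 of the 11 shared). With no replicate block it was 1. A fit that left out a control set kept both HFD sets, which then gave the spread, so its calls are not counted. It was 9 to 12 with a pseudocount of 0.1, a minimum of 10 TPM, Rn45s left out, means of per-cell logs, weighting by genes detected or at least 4000 genes per cell. Fcgbp and Tff3, goblet cell genes that were higher but not called over all cells, changed sign and were called lower within the interquartile range (−4.69 and −4.21; limma, adjusted p = 0.0325 and 0.0226). Means of per-cell logs moved the differences of Reg3g to 1.82, H2-Q7 to 1.35, Psmb8 to 1.92 and Cyp2e1 to −1.58, all still called. The difference in genes per cell, 57.4 as the mean of both sets, was −26.7 without secretory cells. The diet difference of differences was 0 calls, and 3 without HFD replicate 2 (leave-one-out range 0 to 3). Between full class II cells of the diets, the percent of genes called was 0.00859 (1 gene), and 0 with no filter, 0.0427 (3 genes) at a minimum of 10 TPM, 0 with means of per-cell logs, and 0 to 0.957 leaving out each set in turn, the latter without HFD replicate 2 (75 genes higher and 36 lower). With the set number as a replicate block across the diets it was 0.0429 (5 genes); the numbers are only labels there, and sets of the same number deviated together with r = 0.136 over 11643 genes. The cause of these changes was not tested.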
